A study of Homo sapiens with 18 samples.

Results

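The regulators of G-protein signalling RGS1, RGS2, RGS10, RGS13, RGS14, RGS16 and RGS19, 7 genes in all, were followed in the human lymphoblastoid line GM12878 in CRISPR knockouts of single NF-kB subunits. The 7 genes were taken by symbol from a deposited expression table of 17155 genes, in which 18 protein-coding genes carry an RGS number. The rule holds no level, fold or p-value, but the genes were selected on earlier results of these data, without a record of which measured values were used. Level was not the rule: RGS3, with a mean of 1405 normalised read counts over the 18 libraries, lies outside the 7, and RGS2, with a mean of 19.5, lies inside. The values below are therefore a description of these genes, and their adjusted p-values are not independent support for a change in the family.

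GM12878 is a B-cell line immortalised by Epstein-Barr virus, and the labels give all its groups the genotype wild type for LMP1, the viral membrane protein that switches on NF-kB. Polyadenylated RNA was sequenced from 6 groups of 3 libraries: stable CRISPR knockouts labelled cRel (gene REL), p50 (NFKB1), p52 (NFKB2), RelA (RELA) and RelB (RELB), and a control with a non-targeting guide, labelled pxpr. Lentivirus delivered the guides, every group went through 5 days of puromycin at 3 µg/ml, and the protocol states that each knockout was checked by immunoblot. The labels call the 3 libraries of a group biological replicates. Whether they came from separate transductions is not given. The p-values set a group difference against the spread of libraries within groups, pooled over the 6 groups. They may not cover the spread between separate transductions.

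RGS proteins are GTPase-activating proteins: they speed the hydrolysis of GTP by G alpha subunits and so shorten the signals of G-protein-coupled receptors. In B cells those receptors include the chemokine and lipid receptors that guide cells into and out of follicles. RGS1, RGS2, RGS13 and RGS16 belong to the R4 subfamily, which has little more than the RGS domain. RGS10 and RGS14 belong to the R12 subfamily and RGS19 to the RZ subfamily.

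RGS1, RGS13 and RGS2 lie beside one another on chromosome 1 in the GENCODE 29 annotation, in the order RGS18, RGS21, RGS1, RGS13 and RGS2 among named protein-coding genes. RGS16 lies elsewhere on the same chromosome. The 250 bases before the RefSeq start of these 4 R4 genes are shown because they are the members with the widest changes, with matches to a loose form of the NF-kB site (GGG, any 5 bases, then CC) in capitals. Both strands were searched, and each sequence is written 5′ to 3′ on its gene's strand.
RGS1 promoter: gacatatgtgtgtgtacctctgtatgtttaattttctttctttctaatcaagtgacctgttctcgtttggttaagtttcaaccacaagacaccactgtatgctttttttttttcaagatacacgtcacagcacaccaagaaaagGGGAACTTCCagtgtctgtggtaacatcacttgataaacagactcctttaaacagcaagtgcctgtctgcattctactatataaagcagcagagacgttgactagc
RGS13 promoter: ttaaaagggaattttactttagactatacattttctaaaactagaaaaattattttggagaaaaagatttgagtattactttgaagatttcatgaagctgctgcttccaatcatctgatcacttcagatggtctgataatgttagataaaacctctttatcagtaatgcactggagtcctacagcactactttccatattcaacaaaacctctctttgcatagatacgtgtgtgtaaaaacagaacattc
RGS2 promoter: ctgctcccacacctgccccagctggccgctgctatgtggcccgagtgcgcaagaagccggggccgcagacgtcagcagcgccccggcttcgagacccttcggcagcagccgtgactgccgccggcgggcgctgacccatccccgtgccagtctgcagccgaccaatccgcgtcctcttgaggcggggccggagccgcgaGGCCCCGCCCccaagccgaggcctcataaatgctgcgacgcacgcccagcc
RGS16 promoter: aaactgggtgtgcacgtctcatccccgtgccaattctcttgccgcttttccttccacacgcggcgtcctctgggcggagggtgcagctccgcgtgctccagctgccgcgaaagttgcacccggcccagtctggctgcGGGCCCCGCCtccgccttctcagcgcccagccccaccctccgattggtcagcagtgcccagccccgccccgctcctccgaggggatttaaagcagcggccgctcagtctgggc
On GRCh38.p14 these windows are chr1:192575523-192575772 (plus strand) for RGS1, chr1:192635897-192636146 (plus strand) for RGS13, chr1:192808789-192809038 (plus strand) for RGS2 and chr1:182604390-182604639 (minus strand) for RGS16. The RGS1 match, GGGAACTTCC, begins 106 bases before the start. RGS16 has GGGCCCCGCC from 113 bases before its start. RGS2 has GGCCCCGCCC, a match on the other strand, from 51 bases before its start. The RGS13 window holds none of these letter strings, and 32.0% of its bases are G or C, against 39.2% in RGS1, 72.8% in RGS2 and 68.4% in RGS16. In all, 5 of the 7 genes and 6 of their 9 windows hold a match, beside 54.43% of 35116 RefSeq promoter windows of the same length, so a match is common and describes letters only.

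Recovered depth was 15.2 to 37.5 M reads per library (median 22.1 M). The targeted gene's RNA fell in 3 of the 5 knockouts: NFKB1 had 4685 ± 56.4 normalised read counts in p50 knockout libraries and 7066 ± 305 in control libraries, NFKB2 had 6320 ± 172 in p52 knockout libraries and 8566 ± 138 in control libraries, and RELA had 1368 ± 35.4 in RelA knockout libraries and 2208 ± 31.6 in control libraries (SD, n = 3 each). RELB went the other way, with 4107 ± 170 in libraries labelled RelB and 3319 ± 158 in control libraries (log2 fold change 0.31, limma adjusted p = 1.7e-04). REL had 1298, 1315 and 1282 in libraries labelled cRel, against 1554, 1717 and 856 in control libraries (log2 fold change -0.02, limma adjusted p = 0.96). Without control library 3, p52 library 3 and RelA library 2 it was called lower in libraries labelled cRel (log2 fold change -0.33, adjusted p = 0.0037). That was the only 1 of 18 alternative settings to call it. With any 1 library left out REL was at -0.331 to 0.170 and was not called. RELB RNA was also higher in libraries labelled cRel (0.38, limma adjusted p = 3.7e-04), p52 (0.36, 5.3e-05) and p50 (0.23, 0.0063). It was lower in RelA knockout libraries (-0.82, 1.3e-08), where NFKB1 (-0.46) and NFKB2 (-0.36) were lower too. RNA of a subunit gene thus did not follow its own knockout alone. The protocol's check was by immunoblot, and protein was not measured here. Whether the labels are right was not tested. Because RNA of the targeted gene was not called lower in the main fit, the groups are called RelB-labelled and cRel-labelled below. Libraries of a group also differed by transcript length. Across 12363 genes, each library's deviation from its group mean was correlated by rank with exon length. The most negative correlations were -0.452 in control library 3, -0.379 in p52 library 3 and -0.314 in RelA library 2. These are called the 3 libraries apart in transcript length below. They were the low end of a range without a clear gap, with RelB-labelled library 3 at -0.202. At the other end were control library 2 (0.364) and p52 library 2 (0.268). Deviations from a group mean offset one another, so the opposite signs within a group are not separate findings. All 8 B-cell markers looked up were present, with summed levels of 49786 to 53937 in RelB-labelled libraries and 45783 to 47084 in control libraries. The sums were 50156 to 53139 in cRel-labelled, 43885 to 47063 in p50, 47736 to 48986 in p52 and 43843 to 47708 in RelA knockout libraries. By mean, MS4A1 (21620 ± 1646 against 24580 ± 559) and CD79B were lower in RelB-labelled than in control libraries. The rest were higher, among them EBF1 (2422 ± 84.4 against 1138 ± 57.7, SD, n = 3 each).

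All 7 genes passed the test in RelB-labelled cells, where 67.8% of all 12381 genes tested were called. RGS1 rose 7.43-fold, RGS10, RGS14 and RGS19 rose 1.18- to 1.41-fold, and RGS2, RGS13 and RGS16 fell 1.88- to 3.23-fold. That is 4 of 7 higher and 3 of 7 lower, beside 33.1% and 34.7% of all genes. In p50 knockout cells 4 genes were called where 36.7% of all genes were: RGS14 rose, 1 of 7 beside 17% of all genes, and RGS2, RGS13 and RGS16 fell, 3 of 7 beside 19.6%. In p52 knockout cells 4 were called where 50.8% of all genes were: RGS10, RGS14 and RGS19 rose, 3 of 7 beside 24.5%, and RGS16 fell, 1 of 7 beside 26.4%.

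Fewer genes of any kind were called in the other 2 knockouts. In cRel-labelled cells 2 of the 7 were called where 6.09% of all genes were: RGS13 rose, 1 of 7 beside 4.17% of all genes, and RGS16 fell, 1 of 7 beside 1.92%. In RelA knockout cells 1 was called where 5.55% of all genes were: RGS1 fell, 1 of 7 beside 2.63%, and none was called higher by limma, where 2.92% of all genes were. At an unadjusted p under 0.05, 4 of the 7 differed in RelA knockout cells in either direction, and edgeR and DESeq2 called 1 each. The share of all genes at that unadjusted threshold was not counted, so the 4 has no background here. All 3 libraries lay on one side of the 3 control libraries for 7 genes in RelB-labelled cells, beside 70% of all genes, for 4 genes in p50 knockout cells (45%), 4 in p52 knockout cells (52.5%), 3 in RelA knockout cells (22%) and 3 in cRel-labelled cells (26.7%). These shares show how widely each knockout differed from control and are not read as a result about the RGS genes.

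Each call is a Benjamini-Hochberg adjusted p under 0.05 over all genes tested, from limma with an intensity trend on log2 of the normalised read count plus 1. Fold changes are on that scale and understate the change of genes with few reads. In bulk RNA, fewer cells that express a gene and less of its RNA per cell cannot be told apart. The 5 comparisons share the same 3 control libraries. Median log2 fold changes of the 7 genes were 0.03 in cRel-labelled, 0.08 in p50 knockout, 0.10 in p52 knockout, -0.28 in RelA knockout and 0.24 in RelB-labelled libraries, where the medians of all genes tested lay between -0.02 and 0.00.

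**Figure D1:**
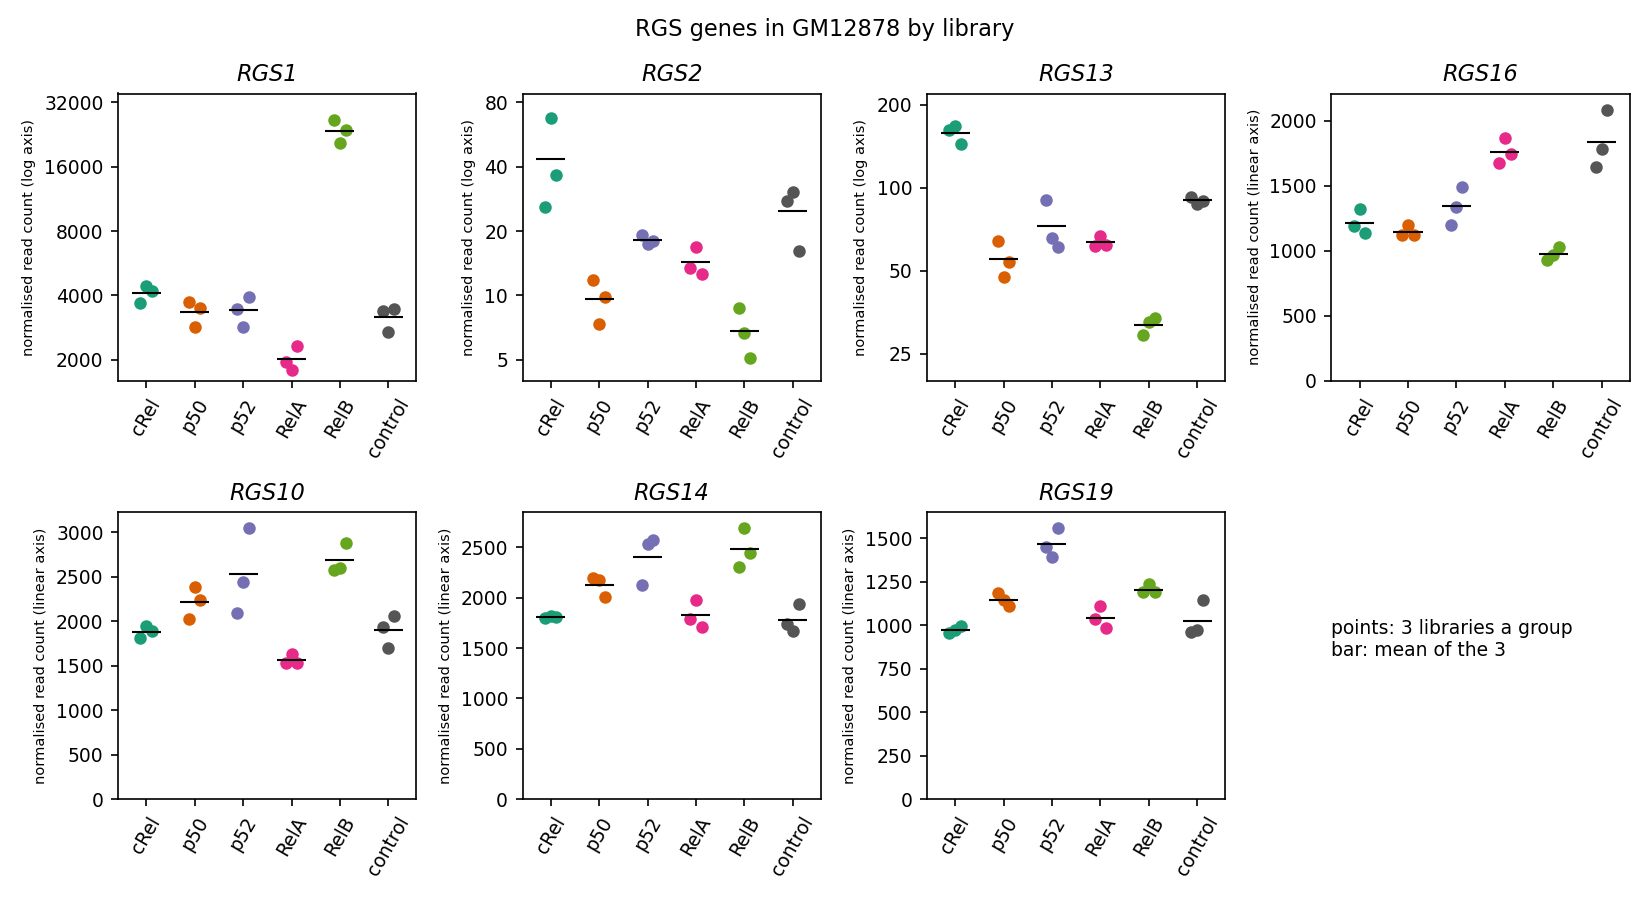
Normalised read count of each RGS gene in each library, with 3 points per group and a bar at the group mean; RGS1, RGS2 and RGS13 have log axes, the other 4 genes linear axes from 0. RGS1 in the RelB-labelled libraries, at 20568 to 26439, sits far above every other library, while the means of RGS2 and RGS13 are lowest there and highest in the cRel-labelled libraries.

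RGS1 (ENSG00000090104) restrains the response of B cells to chemokines and was the member with the widest range. It had 26439, 20568 and 23682 normalised read counts in RelB-labelled libraries, against 3370, 2694 and 3460 in control libraries. RelA knockout libraries had 1954, 1801 and 2312. The RelB-labelled libraries were far above every other library, and the RelA knockout libraries were below all 3 control libraries. RGS1 had 3684, 4414 and 4208 in cRel-labelled libraries, all above control. It had 3712, 2839 and 3507 in p50 knockout libraries and 3452, 2843 and 3922 in p52 knockout libraries, and both of these groups overlapped the control range.

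The RGS1 rise in RelB-labelled cells was 2.89 ± 0.12 on the log2 scale (standard error, limma adjusted p = 2.8e-14), the 36th highest of all genes tested. Leaving out any 1 library of the comparison gave 2.78 to 2.99. In RelA knockout cells RGS1 fell by 0.65 ± 0.12 (adjusted p = 0.0019), or 1.57-fold. The cRel-labelled difference of 0.37 did not pass (adjusted p = 0.080), though it did with only the 2 groups compared in the fit (0.028) and without the 3 libraries apart in transcript length (0.029). The values in p50 and p52 knockout cells were 0.08 (adjusted p = 0.66) and 0.10 (adjusted p = 0.53).

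Set directly against each other, RelB-labelled cells had more RGS1 than every other knockout. The difference was 3.54 over RelA knockout (adjusted p = 1.8e-15), 2.81 over p50 knockout (1.7e-13), 2.79 over p52 knockout (2.0e-13) and 2.52 over cRel-labelled cells (2.2e-13), all log2. RelA knockout cells had less RGS1 than cRel-labelled cells (-1.02, adjusted p = 3.3e-06), p52 knockout cells (-0.75, 3.0e-05) and p50 knockout cells, where p50 minus RelA was 0.73 (8.3e-05). Per kilobase of exon, RGS1 ranked 114th of 17102 genes in RelB-labelled cells and 1439th in control cells, as a description of level. It had 930 to 1194 reads per M reads in RelB-labelled libraries and 116 to 146 in control libraries. The 7 genes together had a median of 31257 normalised read counts in RelB-labelled libraries and 9776 in control libraries, and without RGS1 these medians were 7532 and 6406.

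Marker genes of other cell types also differed between groups. The summed level of the monocyte and macrophage markers was 763 to 790 in RelB-labelled, 631 to 709 in p50 knockout, 604 to 699 in p52 knockout, 361 to 434 in RelA knockout and 328 to 401 in cRel-labelled libraries, against 397 to 430 in control libraries. Of 7 listed, 6 were in the table and CSF1R alone reached a mean of 10, with 747 ± 15.5 in RelB-labelled, 653 ± 43.2 in p50 knockout, 640 ± 51.8 in p52 knockout and 389 ± 17.6 in control libraries (SD, n = 3 each), while CD14 stayed at or under 3.16 in every library. The T and NK cell markers, 6 of 8 in the table, summed to 709 to 795 in RelB-labelled, 457 to 483 in p50 knockout, 521 to 585 in p52 knockout and 432 to 583 in control libraries. NKG7 made up most of that sum, with 675 ± 45.5 in RelB-labelled and 411 ± 71.3 in control libraries. GNLY went the other way, with 8.01 ± 1.91 in RelB-labelled and 29.4 ± 6.38 in control libraries, and CD3D stayed at or under 1.63 in every library. The part of these genes in the RGS values was not tested.

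RGS13 (ENSG00000127074), a gene typical of germinal-centre B cells, ran opposite to RGS1 in RelB-labelled cells. It had 29.2, 32.5 and 33.7 normalised read counts in RelB-labelled libraries and 163, 167 and 145 in cRel-labelled libraries, against 92.6, 87.7 and 89.8 in control libraries. Every cRel-labelled library was above, and every RelB-labelled library below, all remaining libraries. RGS13 had 64.2, 47.4 and 53.9 in p50 knockout libraries, 90.7, 65.9 and 61.2 in p52 knockout libraries and 61.6, 67.1 and 62.2 in RelA knockout libraries. Among these only p52 library 1 reached the control range.

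RGS13 fell 2.78-fold in RelB-labelled cells (log2 fold change -1.48 ± 0.15, standard error, limma adjusted p = 1.7e-08) and 1.63-fold in p50 knockout cells (-0.71, adjusted p = 9.8e-04). It rose 1.75-fold in cRel-labelled cells (0.80, adjusted p = 0.0015). The p52 value of -0.33 did not pass (adjusted p = 0.075) but did without p52 library 1 (-0.50, adjusted p = 0.011) and under quantile normalisation (-0.58, adjusted p = 0.0037). The RelA value of -0.50 had an adjusted p of 0.058. In direct comparison, all 4 other knockouts had less RGS13 than cRel-labelled cells, by -1.13 in p52 knockout (adjusted p = 3.4e-06), -1.30 in RelA knockout (1.9e-06), -1.51 in p50 knockout (1.5e-07) and -2.28 in RelB-labelled cells (2.1e-11).

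RGS2 (ENSG00000116741), which acts mainly on Gq, followed a similar order at a level where few reads were counted, 5 to 74 per library. It had 8.75, 6.69 and 5.10 normalised read counts in RelB-labelled libraries and 11.8, 7.37 and 9.80 in p50 knockout libraries, against 27.6, 30.6 and 16.2 in control libraries. Both knockout groups lay below every control library. RGS2 had 26.0, 67.7 and 36.4 in cRel-labelled libraries, 19.1, 17.3 and 18 in p52 knockout libraries and 13.4, 16.8 and 12.7 in RelA knockout libraries. These 3 groups overlapped the control range.

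RGS2 fell 3.23-fold in RelB-labelled cells (log2 fold change -1.69 ± 0.32, standard error, limma adjusted p = 7.1e-05) and 2.38-fold in p50 knockout cells (-1.25, adjusted p = 0.0040). With a pseudocount of 10 in place of 1, these became -1.03 and -0.80. The cRel-labelled value of 0.72 (adjusted p = 0.20), the p52 value of -0.38 (0.33) and the RelA value of -0.71 (0.21) did not pass. Against cRel-labelled cells, RGS2 was lower in RelB-labelled (-2.42, adjusted p = 8.1e-07, and -1.59 with a pseudocount of 10), p50 knockout (-1.97, 6.5e-05), RelA knockout (-1.44, 0.0036) and p52 knockout cells (-1.10, 0.0071). The last of these was lost without cRel-labelled library 2, which had the highest RGS2 of all libraries (-0.73, adjusted p = 0.076).

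The neighbours just past RGS2 on chromosome 1, chosen after their values were seen, were lower or not called in RelB-labelled cells. UCHL5, a deubiquitinase, had 1777 ± 68.2 normalised read counts in RelB-labelled and 2548 ± 101 in control libraries (SD, n = 3 each). GLRX2, a glutaredoxin, had 230.4 ± 6.95 in RelB-labelled and 341 ± 36.9 in control libraries. TROVE2, an RNA-binding protein, had 1622 ± 70.8 in RelB-labelled and 1445 ± 212 in control libraries, a difference that did not pass (log2 fold change 0.18, limma adjusted p = 0.068). On the other side, RGS18 had a mean of 0.349 over the 18 libraries. RGS1 and its neighbours RGS13 and RGS2 were called in opposite directions in the same libraries.

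RGS16 (ENSG00000143333), which limits Gi- and Gq-coupled receptor signals in lymphocytes, was lower in all knockouts but RelA. It had 932, 970 and 1028 normalised read counts in RelB-labelled libraries, against 1649, 1781 and 2086 in control libraries. The cRel-labelled libraries had 1192, 1321 and 1133, the p50 knockout libraries 1121, 1201 and 1122, and the p52 knockout libraries 1198, 1334 and 1492. Each of these 4 groups lay below all control libraries. RelA knockout libraries, with 1673, 1866 and 1742, overlapped the control range.

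RGS16 fell 1.88-fold in RelB-labelled cells (log2 fold change -0.91 ± 0.09, standard error, limma adjusted p = 5.2e-09), 1.59-fold in p50 knockout (-0.67, adjusted p = 5.0e-06), 1.51-fold in cRel-labelled (-0.59, adjusted p = 9.8e-05) and 1.37-fold in p52 knockout cells (-0.45, adjusted p = 1.4e-04). In RelA knockout cells the value was -0.06 (adjusted p = 0.76). The direct comparisons gave a difference from the RelA knockout in each case. It was -0.85 for RelB minus RelA (adjusted p = 1.4e-08), -0.62 for p50 minus RelA (7.9e-06), 0.54 for RelA minus cRel (1.3e-04) and 0.40 for RelA minus p52 (5.4e-04). RGS16 was also lower in RelB-labelled than in p50 knockout cells (-0.23, adjusted p = 0.026), which was lost without p50 library 2 (0.092), RelB-labelled library 1 (0.097) or RelB-labelled library 2 (0.061), and under quantile normalisation (-0.19, adjusted p = 0.070).

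RGS10 (ENSG00000148908), a Gi-selective member of the R12 subfamily, had 2142 normalised read counts per kilobase of exon in RelB-labelled cells and 1519 in control cells, where RGS1 had 5723 in RelB-labelled and 771 in control cells. It had 2574, 2599 and 2873 normalised read counts in RelB-labelled libraries and 2091, 2444 and 3044 in p52 knockout libraries, against 1938, 1704 and 2062 in control libraries. Both knockout groups lay above every control library. RGS10 had 1809, 1944 and 1888 in cRel-labelled libraries, 2027, 2388 and 2240 in p50 knockout libraries and 1525, 1635 and 1529 in RelA knockout libraries. The RelA knockout libraries were all below control, and the other 2 groups overlapped it.

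RGS10 rose 1.41-fold in RelB-labelled cells (log2 fold change 0.50 ± 0.10, standard error, limma adjusted p = 1.1e-04) and 1.32-fold in p52 knockout cells (0.40, adjusted p = 0.0018). Without p52 library 3 the p52 value was 0.25. The p50 value of 0.22 did not pass (adjusted p = 0.077) but did without p50 library 1 (0.042), control library 3 (0.044) or the 3 libraries apart in transcript length (0.0065). The RelA value of -0.28 did not pass (adjusted p = 0.11) but did without control library 2 (-0.36, adjusted p = 0.043). The cRel-labelled value was -0.01 (adjusted p = 0.95). Directly compared, RelA knockout cells had less RGS10 than RelB-labelled cells, where RelB minus RelA was 0.78 (adjusted p = 3.6e-07), than p52 knockout cells (-0.68, 5.5e-06) and than p50 knockout cells, where p50 minus RelA was 0.50 (3.3e-04).

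RGS14 (ENSG00000169220), which joins an RGS domain to Ras-binding domains and a GoLoco motif that holds inactive Gi alpha, was called higher together with RGS10 in RelB-labelled and p52 knockout cells. It had 2304, 2690 and 2446 normalised read counts in RelB-labelled libraries, 2123, 2537 and 2569 in p52 knockout libraries and 2196, 2176 and 2005 in p50 knockout libraries, against 1739, 1666 and 1935 in control libraries. All 9 of these knockout libraries were above the 3 control libraries. RGS14 had 1801, 1824 and 1804 in cRel-labelled and 1790, 1981 and 1705 in RelA knockout libraries, both overlapping control. It rose 1.39-fold in RelB-labelled (log2 fold change 0.48 ± 0.08, standard error, limma adjusted p = 1.5e-05), 1.35-fold in p52 knockout (0.43, adjusted p = 9.1e-05) and 1.20-fold in p50 knockout cells (0.26, adjusted p = 0.014). The p50 call was lost without p50 library 2 (adjusted p = 0.051) or control library 2 (0.068). The cRel-labelled value was 0.03 (adjusted p = 0.88) and the RelA value 0.04 (adjusted p = 0.84).

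RGS19 (ENSG00000171700), also called GAIP for its binding to Gi alpha, was highest in p52 knockout cells. It had 1452, 1393 and 1558 normalised read counts in p52 knockout libraries and 1191, 1234 and 1190 in RelB-labelled libraries, against 960, 971 and 1143 in control libraries. The p52 knockout libraries were above every other library, and the RelB-labelled libraries were above control. RGS19 had 954, 971 and 998 in cRel-labelled, 1184, 1148 and 1110 in p50 knockout and 1033, 1111 and 987 in RelA knockout libraries, all overlapping control, where library 3 was the highest. RGS19 rose 1.43-fold in p52 knockout cells (log2 fold change 0.52 ± 0.07, standard error, limma adjusted p = 2.3e-06) and 1.18-fold in RelB-labelled cells (0.24, adjusted p = 0.0046).

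The remaining RGS19 values against control were 0.17 in p50 knockout (adjusted p = 0.065), 0.03 in RelA knockout (0.86) and -0.07 in cRel-labelled cells (0.61), all log2. The p50 value passed without control library 3 (0.25, adjusted p = 0.0080), without the 3 libraries apart in transcript length (0.0025), with the transcript-length adjustment (0.0021), under quantile normalisation (0.038) and with edgeR (0.046). Direct comparisons put p52 knockout cells above cRel-labelled cells (0.59, adjusted p = 7.1e-07), above RelA knockout cells, where RelA minus p52 was -0.49 (4.2e-06), above p50 knockout cells, where p50 minus p52 was -0.35 (7.6e-04), and above RelB-labelled cells, where RelB minus p52 was -0.28 (0.0021). 

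**Figure D2:**
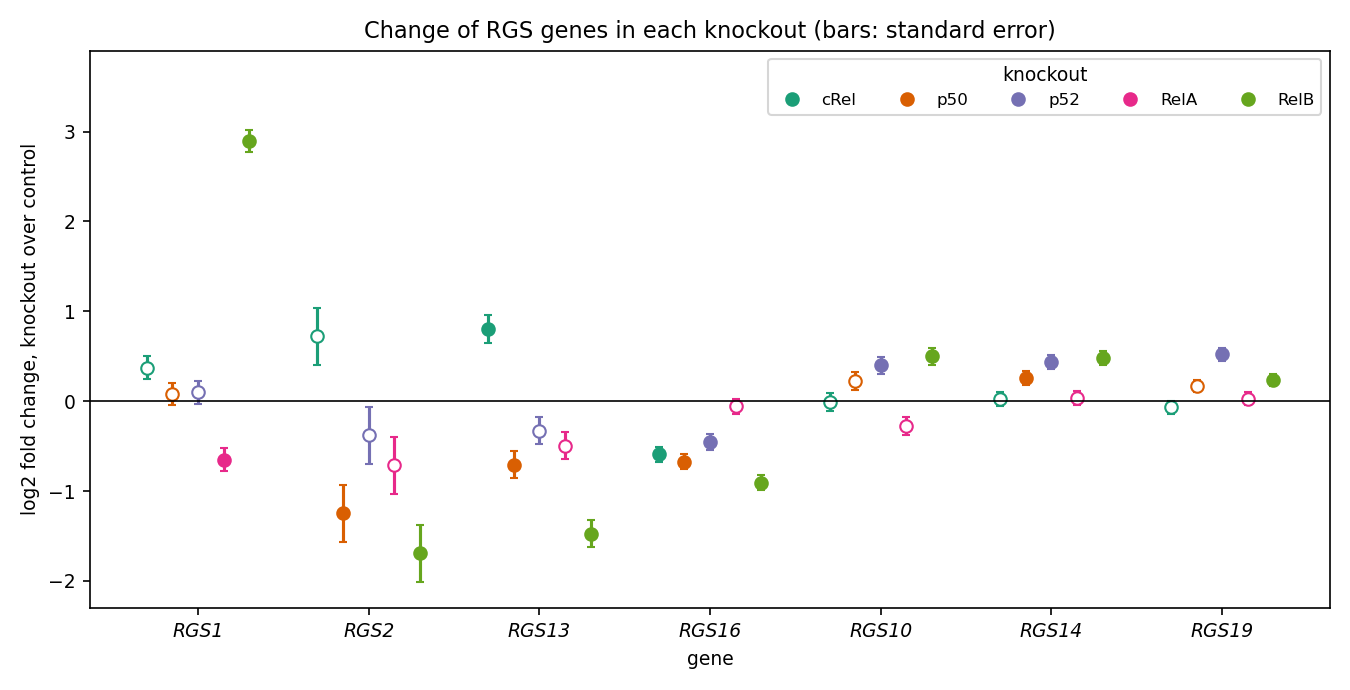
Log2 fold change of each RGS gene in each knockout over control, with standard errors as bars and filled points for adjusted p under 0.05. RGS1 in RelB-labelled cells, at 2.89, and RGS2 in the same cells, at -1.69, mark the ends of the range.

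Across the 10 pairs of knockouts, each gene was called in 6 or 7 pairs. RelB-labelled cells differed in 7 genes from RelA knockout cells, where 67.2% of all genes were called, in 7 from cRel-labelled cells (65.8%), in 5 from p50 knockout cells (53.1%) and in 5 from p52 knockout cells (45.4%). RelA knockout cells differed in 5 genes from p52 knockout cells (52.5%), in 4 from p50 knockout cells (39.2%) and in 4 from cRel-labelled cells (11%). The p52 knockout differed in 5 genes from cRel-labelled cells (45.9%), and the p50 knockout differed in 4 from cRel-labelled cells (31.1%) and in RGS19 alone from the p52 knockout (22.2%). The moderated F-test among the 5 knockouts called all 7 genes, with adjusted p between 6.9e-15 for RGS1 and 1.7e-05 for RGS14, where 78.8% of all genes were called. Ordered by group mean, neighbouring groups often overlapped. For RGS1 the RelB-labelled group and the RelA knockout group stood clear of their neighbours. For RGS13 the cRel-labelled and RelB-labelled groups did so. RGS14 had its single gap between p50 and RelA knockout cells.

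The other 11 RGS-numbered genes in the table were mostly low. Of these, 6 reached a mean of 10 over the libraries and were tested, and the remaining 5, among them RGS17, RGS18 and RGS22, did not. RelB-labelled cells had 3 higher and 2 lower of the 6, beside 33.1% and 34.7% of all genes. The p50 knockout cells had 1 higher and 2 lower (17% and 19.6%), and the p52 knockout cells 4 higher (24.5%). RelA knockout and cRel-labelled cells each had 2 higher, beside 2.92% and 4.17%. RGS3, another R4 gene, had 2188 ± 71.9 normalised read counts in RelB-labelled and 1132 ± 51.1 in control libraries (SD, n = 3 each), a 1.93-fold rise (limma adjusted p = 8.5e-12). It also rose in p52 knockout cells (1412 ± 28.9, log2 fold change 0.32, adjusted p = 1.3e-04).

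RGS9, an R7 gene best known from photoreceptors and striatum, fell to 75.3 ± 11.6 normalised read counts in p50 knockout libraries, against 187 ± 16.8 in control libraries (log2 fold change -1.31, limma adjusted p = 2.3e-08). It fell to 126 ± 5.99 in RelB-labelled libraries (-0.56, adjusted p = 1.4e-04), and it rose to 283 ± 3.63 in RelA knockout libraries (0.60, adjusted p = 0.0016). RGS20, an RZ gene like RGS19, fell in p50 knockout cells (46.5 ± 6.90 against 86.7 ± 12.7 in control, -0.88, adjusted p = 2.0e-04). RGS12, another R12 gene, rose in p52 knockout cells (78.2 ± 12 against 45.5 ± 3.09 in control, 0.76, adjusted p = 0.0014) and in RelA knockout cells (78.0 ± 9.45, 0.76, adjusted p = 0.013). Quantile normalisation made the p52 value of RGS12 0.46 (adjusted p = 0.039). The RelA call of RGS12 was lost without RelA library 3 (0.085), control library 1 (0.062) or the 3 libraries apart in transcript length (0.057).

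**Figure D3:**
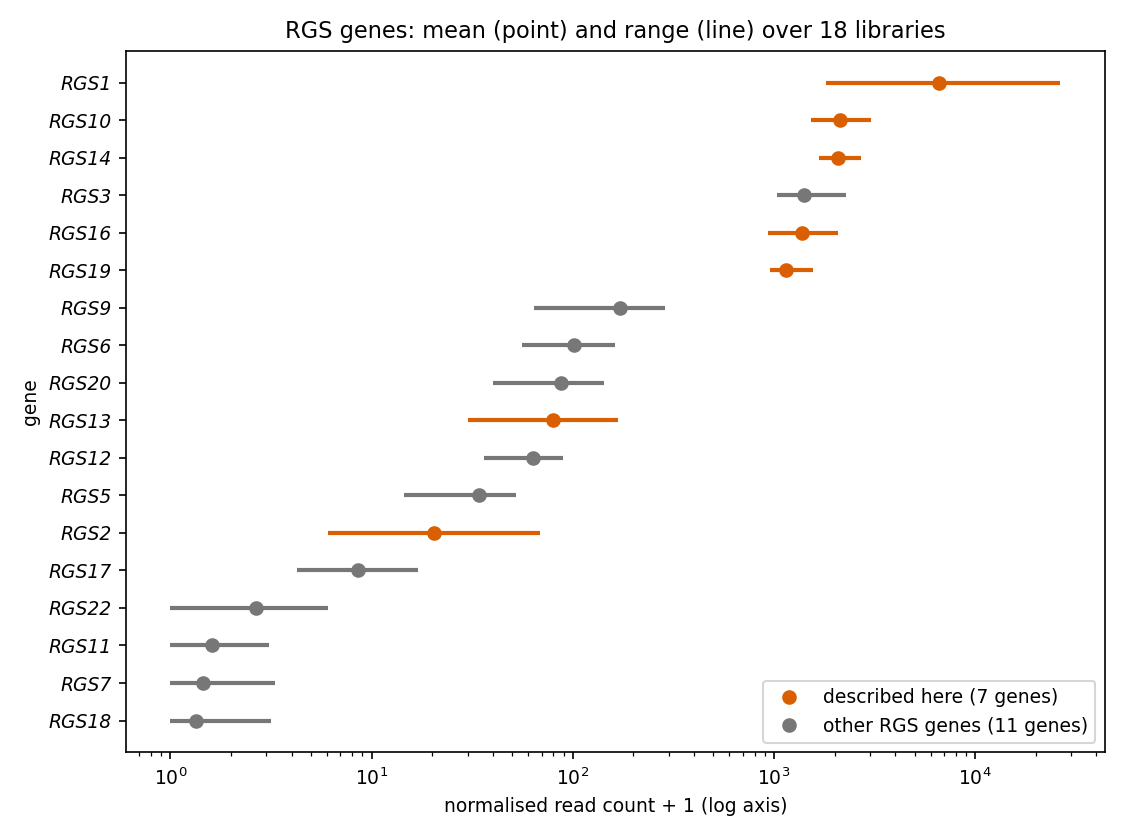
Mean (point) and lowest to highest library (line) of the normalised read count plus 1 for the 18 RGS-numbered protein-coding genes, on a log axis. The 7 genes described here span means of 19.5 for RGS2 to 6603 for RGS1, and RGS3, RGS9, RGS6 and RGS20 lie between them.

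G alpha subunits are the substrates of RGS proteins. Of 10 tested, RelB-labelled cells had 1 higher and 4 lower where 67.8% of all genes were called, p50 knockout cells 1 higher and 5 lower (36.7%), p52 knockout cells 3 of each (50.8%), and cRel-labelled cells 1 lower (6.09%). RelA knockout cells, where 5.55% of all genes were called, had 0 of 10 called by limma, 0 by edgeR and 1 by DESeq2. At an unadjusted p under 0.05 there were 2, where the share of all genes was not counted. GNAQ, the Gq subunit on which RGS2 acts, had 720 ± 9.58 normalised read counts in RelB-labelled and 55.7 ± 4.71 in control libraries (SD, n = 3 each), a 12.7-fold rise (log2 fold change 3.67, limma adjusted p = 1.5e-14). In the same comparison GNAI3, a Gi subunit, fell (2660 ± 56.9 against 3567 ± 109 in control, -0.42, adjusted p = 4.9e-07), and the transcript-length adjustment made this -0.71. GNAI2, the main Gi subunit of lymphocytes, fell in p50 knockout cells (-0.32, adjusted p = 5.0e-04) and p52 knockout cells (-0.28, 6.6e-04), and quantile normalisation made these -0.15 and -0.10, the second no longer called (adjusted p = 0.16). GNA15, a Gq-family subunit of blood cells, fell in p50 knockout cells (-0.49, adjusted p = 1.5e-04). GNAI3 also fell in p52 knockout cells (-0.23, adjusted p = 0.0013), a call lost under quantile normalisation (-0.12, adjusted p = 0.090).

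Of 11 G beta and gamma subunits, RelB-labelled cells had 2 higher and 2 lower where 67.8% of all genes were called, p52 knockout cells 3 higher and 2 lower (50.8%), p50 knockout cells 1 of each (36.7%) and cRel-labelled cells 1 lower (6.09%). RelA knockout cells (5.55%) had 0 of 11 called by limma and 0 by edgeR and by DESeq2. At an unadjusted p under 0.05 there was 1, where the share of all genes was not counted. GNG12, a gamma subunit, had 905 ± 51.6 normalised read counts in RelB-labelled and 122 ± 12 in control libraries (SD, n = 3 each), a 7.37-fold rise (limma adjusted p = 1.5e-14). It had 225 ± 18.5 in p52 knockout libraries (log2 fold change 0.88, adjusted p = 1.3e-06). GNG7, the other gamma subunit named by the rule there, rose in RelB-labelled (0.54, adjusted p = 1.0e-06) and p52 knockout cells (0.28, 0.0028). In p50 knockout cells GNG5 fell (-0.41, adjusted p = 6.8e-04), and GNG7 was at 0.20 (0.041), a call lost without p50 library 2 (0.32), control library 2 (0.15) or control library 3 (0.068).

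Of 16 chemoattractant and lipid receptors tested, RelB-labelled cells had 6 higher and 8 lower where 67.8% of all genes were called, p50 knockout cells 2 higher and 6 lower (36.7%), and p52 knockout cells 2 higher and 5 lower (50.8%). The cRel-labelled cells had 2 higher and 1 lower (6.09%), and RelA knockout cells 1 higher (5.55%). CXCR3, a receptor for interferon-induced chemokines, fell to 70.7 ± 2.93 normalised read counts in RelB-labelled and 150 ± 35.5 in p50 knockout libraries, against 613 ± 73.2 in control libraries (SD, n = 3 each; log2 fold changes -3.09 and -2.04, limma adjusted p = 1.8e-13 and 3.2e-09). CCR7, which draws B cells to the T-cell zone, rose to 16175 ± 109 in RelB-labelled, 14155 ± 367 in p52 knockout and 10315 ± 181 in RelA knockout libraries, against 8458 ± 320 in control libraries (0.94, 0.74 and 0.29, adjusted p = 5.5e-12, 1.9e-09 and 0.0030). S1PR1, the receptor for lymphocyte exit, fell in p50 knockout (-1.17, adjusted p = 7.6e-09) and p52 knockout cells (-1.18, 2.4e-09).

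Of 18 effectors and adaptors tested, RelB-labelled cells had 7 higher and 6 lower where 67.8% of all genes were called, p52 knockout cells 7 higher and 3 lower (50.8%), and p50 knockout cells 5 higher and 3 lower (36.7%). The cRel-labelled cells had 3 higher and 1 lower (6.09%), and RelA knockout cells 1 lower (5.55%). PTK2B, a kinase downstream of chemokine receptors, rose in RelB-labelled (log2 fold change 0.68, limma adjusted p = 2.2e-10) and p52 knockout cells (0.43, 6.8e-07). PIK3R5, the regulatory subunit of PI3K gamma, rose in RelB-labelled (0.67, adjusted p = 2.3e-09) and p50 knockout cells (0.47, 5.1e-06). PLCB1, the phospholipase activated by Gq, rose in p50 knockout (1.24, adjusted p = 3.4e-06) and cRel-labelled cells (1.15, 3.6e-05). ARRB1, beta-arrestin 1, rose in p52 knockout cells (0.94, adjusted p = 2.0e-09). PIK3CG, the catalytic subunit of PI3K gamma, rose in cRel-labelled cells (0.81, adjusted p = 9.9e-04) and fell in RelA knockout cells (-0.63, 0.010), the second call lost without control library 1 (0.092).

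Proteins that carry an RGS-like domain without an RGS number, such as the G-protein-coupled receptor kinases and the axins, were counted in the same way. Of 14 tested, RelB-labelled cells had 6 higher and 4 lower where 67.8% of all genes were called, p52 knockout cells 6 higher and 1 lower (50.8%), p50 knockout cells 4 higher and 1 lower (36.7%), and cRel-labelled cells 1 higher (6.09%). RelA knockout cells (5.55%) had 0 of 14 called by limma and 0 by edgeR and by DESeq2. At an unadjusted p under 0.05 there were 3, where the share of all genes was not counted. AXIN2, a Wnt pathway scaffold, had 56.2 ± 14.0 normalised read counts in RelB-labelled and 111 ± 2.37 in control libraries (SD, n = 3 each; log2 fold change -0.997, limma adjusted p = 1.9e-06). GRK5, a receptor kinase, rose in RelB-labelled (0.60, adjusted p = 7.8e-06) and p52 knockout cells (0.43, 5.7e-04). ARHGEF1, which links G12/13 to RhoA, rose in p52 knockout (0.35, adjusted p = 5.8e-05) and p50 knockout cells (0.24, 0.0033). ADRBK1, also called GRK2, fell in p50 knockout cells (-0.32, adjusted p = 2.2e-04), and quantile normalisation made this -0.17.

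Several cRel-labelled calls among these genes were lost when 1 library was left out. PTAFR, the platelet-activating factor receptor, rose there (log2 fold change 0.77, limma adjusted p = 0.0056) and kept its call in all 17 alternatives that tested it. RGS20 had 0.64 (adjusted p = 0.015), lost without cRel-labelled library 1 (0.060) or 3 (0.079) or control library 1 (0.084). RGS3 had 0.22 (adjusted p = 0.026), lost without cRel-labelled library 1 (0.066) or 3 (0.155) or control library 1 (0.077) or 2 (0.081), with only the 2 groups compared in the fit (0.077) and with the transcript-length adjustment (0.12, adjusted p = 0.34). S1PR1 had -0.42 (adjusted p = 0.0064), lost without cRel-labelled library 2 (0.067). ADRBK2, a receptor kinase, had 0.26 (adjusted p = 0.038), lost without any cRel-labelled library or control library 1 or 3 (0.052 to 0.20). GNAQ had -0.53 (adjusted p = 0.034), lost without any 1 of the 6 libraries (0.054 to 0.15), with edgeR (0.086), with DESeq2 (0.071) and with only the 2 groups in the fit (0.097). GNG2 had -0.23 (adjusted p = 0.0496), lost without any cRel-labelled library or control library 1 or 2 (0.061 to 0.21), under quantile normalisation (0.067), with edgeR (0.076) and with only the 2 groups in the fit (0.089).

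Genes with the group pattern most like a member's were found by the root-mean-square difference of centred log2 group means over the 6 groups, among 9842 candidate genes with a mean of at least 100. For RGS1 these were SLC2A3, a glucose transporter (0.217), EGR1, an immediate-early transcription factor (0.349), and NRCAM, an adhesion molecule (0.402). SLC2A3 had 2147 ± 258 normalised read counts in RelB-labelled, 202 ± 45.0 in RelA knockout and 211 ± 15.9 in control libraries. For RGS13 they were BCL2L11, which encodes the pro-apoptotic protein BIM (0.210), TMEM2 (0.235) and LMO2, a transcription cofactor of germinal-centre B cells (0.249). BCL2L11 had 2406 ± 65.1 in cRel-labelled, 725 ± 30.9 in RelB-labelled and 1523 ± 155 in control libraries. For RGS2 they were PIK3CG (0.296), BMP2K (0.322) and LMO2 (0.324). The other 4 members spanned less than 1 log2 unit between groups, and no genes were sought for them. With other pseudocounts or quantile normalisation, 6 to 9 of these 9 pairings were kept.

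**Figure D4:**
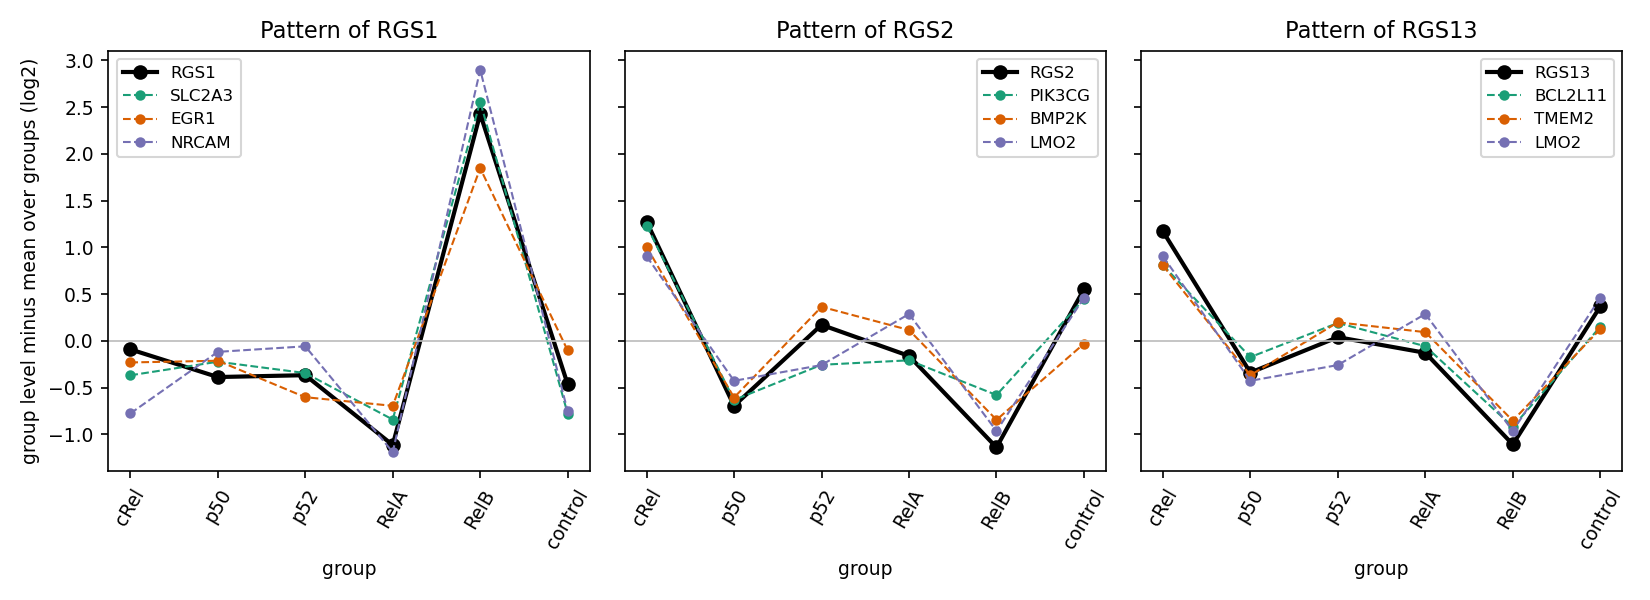
Group level minus its mean over the 6 groups, on the log2 scale, for RGS1, RGS2 and RGS13 (black) and the 3 genes closest to each in pattern (dashed). RGS1 and its 3 genes peak in RelB-labelled cells, and RGS2, RGS13 and their genes peak in cRel-labelled cells.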

How the data were processed

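Per the submitters' processing notes, STAR 2.5.2b, featureCounts 1.5.1 and DESeq2 1.14.1 were used on build GRCh37. Which annotation was counted, whether genes were filtered and the strand setting were not given in the sources used here. The libraries were made with a directional kit from 1 µg of RNA. The unit deposited by the authors is a normalised signal, read counts divided by 1 size factor per library. Dividing out that factor gave whole reads, to within 0.0001, for 308790 of 308790 values (100%). One read was worth 0.646 to 1.46 normalised units.

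The main test was limma 3.58.1 (R 4.3.3) on log2(value + 1), two-sided, in 1 fit of 18 libraries with a mean per group, for 12381 genes with a mean of at least 10. P-values were Benjamini-Hochberg adjusted over those genes within each contrast and called under 0.05. The scripts were tested on simulated data. On the recovered reads, edgeR 4.0.16 called 814 genes in cRel-labelled, 4588 in p50 knockout, 6381 in p52 knockout, 671 in RelA knockout and 8414 in RelB-labelled cells, where limma called 754, 4539, 6295, 687 and 8391. DESeq2 1.42.0, other pseudocounts and filters, quantile normalisation, a replicate block, the compared groups alone, libraries left out and a transcript-length adjustment were also run. The length adjustment was added after the data were seen, and the 3 libraries apart in transcript length were picked by their values in these data.

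The members and gene lists were chosen with earlier results of these data known. Named genes are the 7 members, the 5 subunit genes and, from each list, at most 2 called genes of lowest p per comparison, and 3 genes most like a member whose groups span at least 1 log2 unit. RGS5, also the symbol of an antisense row, and other called genes outside that rule are only counted. Lengths and gene order come from GENCODE 29 (99.691% of genes matched by identifier), promoters from RefSeq on GRCh38.p14, where all 7 members matched. No exon of a member overlaps an exon of another annotated gene there. Replicates varied by more than counting error, with a mean chi-square per gene of 3.14 to 31.2 between libraries of a group.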

Additional observations from a re-analysis of the deposited data

How the results depend on the processing

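All 18 calls of the 7 genes against control kept their direction under every alternative that tested them, and RGS14 in p50 knockout cells was the 1 that lost its call, when 1 library was left out. With a pseudocount of 10, where 689 of all 12381 genes were called, the RelA count of 1 became 2. The same held under quantile normalisation (598 genes called) and with the transcript-length adjustment (745 of 12363). RGS13 was added in each of these. The RelA count ranged from 1 to 2 when 1 library was left out, where 413 to 848 genes were called. With a minimum mean of 100, RGS2 and RGS13 are not tested. The cRel-labelled count was then 1 in place of 2 (631 of 9847 genes called) and the p50 count 2 in place of 4 (4052 genes called). The RelB-labelled count (7046 genes called) and the F-test count (8099 genes called) were each 5 in place of 7. The p50 count was 6 under quantile normalisation, where 3993 of all 12381 genes were called. It was also 6 without the 3 libraries apart in transcript length (4340 genes called) and with the length adjustment (4781 of 12363). RGS10 and RGS19 were added in each of these. With 1 library left out, counts were 2 in cRel-labelled cells, where 448 to 821 of all 12381 genes were called. They were 3 to 6 in p50 knockout (3377 to 4370 genes called), 4 to 5 in p52 knockout (5443 to 6195) and 7 in RelB-labelled cells (7873 to 8021).

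Values near 0, none of them called, changed sign. RGS10 in cRel-labelled cells was 0.00023 with edgeR, 0.0488 without the 3 libraries apart in transcript length and 0.093 with the length adjustment, and -0.089 to 0.0488 with 1 library left out. RGS19 there was 0.0125 without the 3 libraries, 0.0122 with the length adjustment and -0.113 to 0.0125 with 1 library left out. RGS16 in RelA knockout cells was 0.0097 with the length adjustment and -0.133 to 0.037 with 1 left out. With 1 library left out, RGS1 was -0.036 to 0.193 in p50 and -0.016 to 0.222 in p52 knockout cells, RGS14 -0.020 to 0.088 in cRel-labelled and -0.024 to 0.098 in RelA knockout cells, and RGS19 -0.017 to 0.110 in RelA knockout cells. REL in cRel-labelled cells was -0.331 to 0.170. The causes were not tested.

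The main fit did not pair libraries by replicate number. Each library's deviation from its group mean was correlated with those of other libraries. By the rule used, 0 of 5 knockouts had 3 correlations over 0.1 with same-numbered controls. These correlations ran from -0.0995 in RelA library 3 to 0.397 in p52 library 3. However, 16 of 18 libraries correlated best with their own number, a count that does not give the strength of the correlation. Whether same-numbered libraries were prepared together was not tested. With a replicate block the member counts were 3 in cRel-labelled, 5 in p50 knockout, 4 in p52 knockout, 1 in RelA knockout and 7 in RelB-labelled cells, and RGS1 in cRel-labelled (adjusted p = 0.016) and RGS10 in p50 knockout cells (0.045) were added. Under the block 940, 4870, 6557, 834 and 8557 genes were called in those comparisons, more than the 754, 4539, 6295, 687 and 8391 of the main fit. RGS1 in cRel-labelled cells also passed with DESeq2 (0.049) and the length adjustment (0.043). Depth limits RGS2, with 5 to 74 reads per library.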
